A study of Homo sapiens with 6 samples.

Results

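The genes of the G1/S transition and of DNA replication were examined in MIA-PaCa2, an established human cell line of pancreatic ductal adenocarcinoma, after siRNA transfection against the long noncoding RNA H19. The 54 genes were chosen by name for known roles in origin licensing, helicase activation, DNA synthesis, nucleotide supply and S phase entry. Earlier results of these data were known when these genes were chosen. Each was found exactly once among the 39261 named probe sets of the Clariom D array, which measures coding and noncoding transcripts by hybridization to short probes and gives 1 log2 signal per gene. The groups were 3 arrays of cells transfected with the specific siRNA siH19-2 and 3 arrays of cells given a nonsense siRNA as control (NC), and lipotransfection of an siRNA was common to both. RNA was isolated after 24 h. The dose is 50 nM in the methods and 20 µg in the labels. siH19-2 is 1 construct in 1 cell line, and the arrays of the construct siH19-1 were not analysed here. The sources do not say whether the triplicate arrays came from separate cultures, and if they did not, the p-values reflect only how these samples scatter, which may be technical.

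Before S phase, the origin recognition complex, CDC6 and CDT1 load the ring-shaped MCM2 to MCM7 helicase onto DNA in an inactive form, which is called licensing. Cyclin E with CDK2 and the DBF4-dependent kinase then switch the helicase on with the help of CDC45, the GINS complex and MCM10, and the polymerases follow with their sliding clamp PCNA. Many of these genes are transcribed by E2F factors, which are released from the RB protein as cells pass from G1 into S phase, and their transcripts are therefore usually abundant in dividing tumour cells. In bulk RNA, fewer cells in a phase of the cycle and less RNA per cell cannot be told apart.

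A sequence feature was looked for in the RefSeq windows of build GRCh38.p14. A window holds the 300 bases around a gene start, from 250 bases before it to 50 after it. The genes were not chosen by sequence. Many of them are known to be transcribed by E2F factors, however, so their share with the motif is not independent of the choice. The E2F motif was searched as TTTCCCGC, TTTCGCGC, TTTGCCGC and TTTGGCGC on both strands. No other motif was searched, and a palindromic stretch can hold a word on both strands. Of the 54 genes, 46 had a window, and 25 of these (54.3%) held the motif. Among all genes with a window the share was 3.99%, and among protein-coding genes with a window it was 5.4%. Counted by window, 43.3% of the 60 windows of these genes and 3.31% of all 35116 windows held it. The sites are shown for 1 gene of each role, namely the gene with the smallest p among those with a match, at the match nearest to the gene start. Capitals mark the 8 letters of the match and the sequences run 5′ to 3′ on the strand of the gene.
MCM3: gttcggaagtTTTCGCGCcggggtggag
GINS1: gctttgttcgGCGCCAAAgcgcggagcg
POLA2: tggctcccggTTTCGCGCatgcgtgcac
PCNA: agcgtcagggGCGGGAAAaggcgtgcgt
CLSPN: ctctggctggGCGGGAAAgcaagaacag
UNG: agggaggtttTTTGCCGCgaaaagacca
E2F1: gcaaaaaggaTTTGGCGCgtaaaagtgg
The stretch of MCM3 lies at chr6:52284729-52284756 on the minus strand and that of GINS1 at chr20:25407668-25407695 on the plus strand. That of POLA2 lies at chr11:65261899-65261926 on the plus strand and that of PCNA at chr20:5126664-5126691 on the minus strand. Those of CLSPN at chr1:35769966-35769993 and of E2F1 at chr20:33686388-33686415 are on the minus strand, and that of UNG at chr12:109098099-109098126 is on the plus strand. A match describes the letters of the window and does not show that a factor binds there.

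The targeted RNA was lower in the siH19-2 arrays, with 81.3% of the NC signal left. The log2 signal of H19 (gene ID 283120) was 7.10, 7.09 and 7.13 in siH19-2, against 7.36, 7.43 and 7.42 in NC, so the groups did not overlap. The difference, siH19-2 minus NC, was -0.30 (SE 0.036, adjusted p = 0.0121 from limma), and it passed the threshold of 0.05 without NC replicate 1 (0.048) or siH19-2 replicate 3 (0.036), but not without NC replicate 2 (0.067), NC replicate 3 (0.063), siH19-2 replicate 1 (0.059) or siH19-2 replicate 2 (0.053). Arrays correlated at 0.993 to 0.995 within a group and at 0.991 to 0.993 between the groups. siH19-2 replicate 3 stood apart from the other siH19-2 arrays on principal component 2 (19.7% of the variance), at 21.1 against -16.6 and -11.1. Of the epithelial markers, KRT8, KRT18 and KRT19 were bright, with mean log2 signals of 9.63, 9.33 and 8.84 in siH19-2 and 9.74, 9.43 and 9.24 in NC, whereas EPCAM (4.52 in both groups) and CDH1 (5.53 in siH19-2, 5.49 in NC) lay below the median of all probe sets, 6.16. KRT19 passed the test as lower (adjusted p = 0.032 from limma). Of 21 markers of leukocytes, endothelium, fibroblasts, acinar and islet cells, 13 were below that median, none was higher and 2 were lower in siH19-2 (LYZ, adjusted p = 0.023, and COL1A2, adjusted p = 0.032, from limma). The summed linear signal of the 21 markers was 2377 to 2399 in siH19-2 and 2501 to 2532 in NC. COL1A2 was by far the brightest of them, with mean log2 signals of 9.84 in siH19-2 and 10.03 in NC. It therefore weighs most in this sum. The part of these differences in the results on replication genes was not tested.

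The 54 genes did not move as a block. At an adjusted p under 0.05 (limma, Benjamini-Hochberg over all named probe sets), 6 genes fell after siH19-2, namely POLD3, CCNE1, CCNE2, MCM10, DBF4 and GINS1, 2 genes rose, FEN1 and TIMELESS, and 46 did not pass. The falls were 11.1% of the genes, where 2.63% of all probe sets fell, and the rises 3.7%, where 2.64% rose. Over both directions 5.26% of all probe sets passed. All 54 genes had a signal above the median of all probe sets, and such probe sets passed more often. Among the 16098 probe sets with an NC signal within the range of these genes, 5.59% were lower and 5.94% were higher.

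The differences were small. The largest fall left 59.2% of the NC signal and the largest rise was 16.0%. Exactly 27 genes had a negative and 27 a positive difference. Over all probe sets 55.7% had a positive difference, and so did 12199 of the 18834 protein-coding probe sets. All 54 genes are protein-coding. Their median log2 difference was 0.0037, against 0.016 over all probe sets and 0.032 over the protein-coding ones. The mean of the 54 genes was -0.029, so median and mean differ in sign. The mean of the 54 log2 signals was 9.32, 9.32 and 9.32 in siH19-2, against 9.35, 9.35 and 9.34 in NC. In 30 genes (55.6%) the difference was under 0.1 in size, as it was in 61% of all probe sets. The 3 siH19-2 arrays lay below all NC arrays in 16 genes (29.6%, against 9.98% of all probe sets and 17.4% of those in the same signal range). They lay above all NC arrays in 13 genes (24.1%, against 18.3% and 26%). The median standard error of a difference was 0.038, and in 52 of the 54 genes the 95% confidence interval lay within 0.5 of 0 in both directions.

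**Figure D1:**
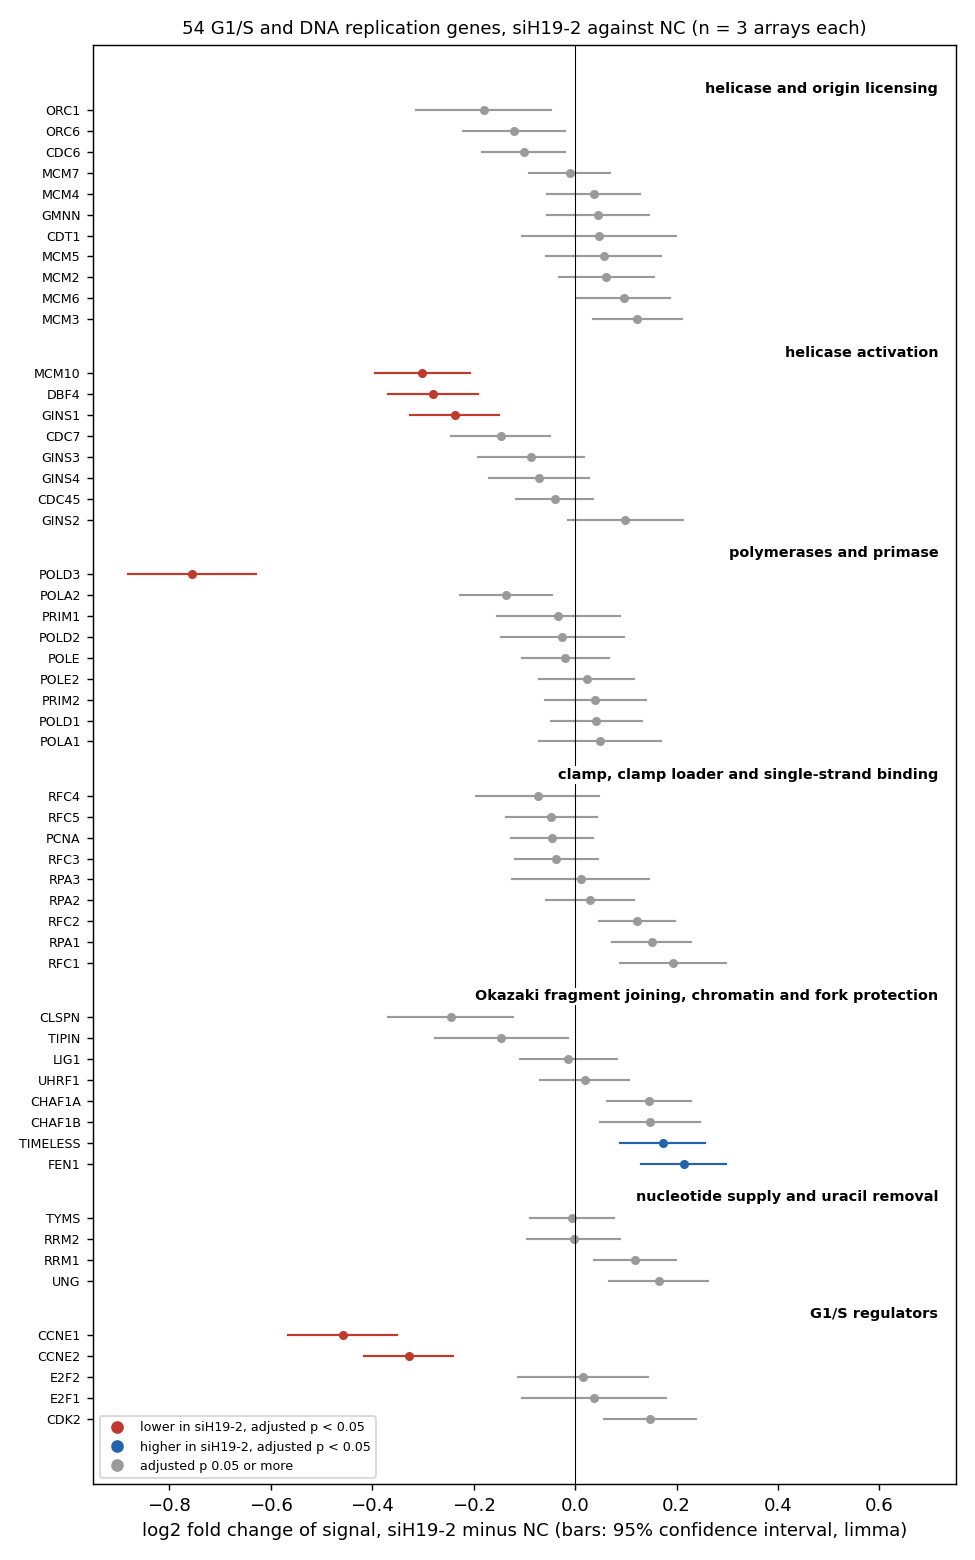
Log2 difference in signal, siH19-2 minus NC, on the horizontal axis for each of the 54 genes, sorted within 7 roles, with 3 arrays per group. Points are the differences and bars their 95% confidence intervals from limma. POLD3 at -0.76 and CCNE1 at -0.46 lie farthest from 0, and every gene of origin licensing is grey.

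Of the 5 G1/S regulators among the 54 genes, the 2 that fell were the genes of cyclin E. CCNE1 and CCNE2 encode cyclins E1 and E2, which activate CDK2 at the end of G1. CCNE1 (gene ID 898) had log2 signals of 8.51, 8.53 and 8.63 in siH19-2, against 9.01, 9.002 and 9.02 in NC. It averaged 8.55 ± 0.07 in siH19-2 and 9.01 ± 0.01 in NC (SD, n = 3 each), a difference of -0.46 (SE 0.044, adjusted p = 0.0057 from limma) that left 72.8% of the NC signal. The highest siH19-2 array of CCNE1 was replicate 3, and it was still below the lowest NC array. CCNE2 (gene ID 9134) had 7.71, 7.71 and 7.72 in siH19-2, against 8.04, 8.004 and 8.08 in NC, a difference of -0.33 (SE 0.036, adjusted p = 0.0087 from limma), and the spread was larger in NC than in siH19-2. CCNE1 passed the test without any 1 of the 6 arrays (adjusted p from 0.012 to 0.042), and CCNE2 failed it without NC replicate 1 (0.055).

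The partner and the transcription factors did not pass the test. CDK2, the kinase that cyclin E activates, had log2 signals of 10.29, 10.27 and 10.23 in siH19-2, against 10.12, 10.14 and 10.08 in NC, with siH19-2 above NC in every array and a difference of 0.15 (adjusted p = 0.089 from limma). E2F1 and E2F2, activators of the S phase program, averaged 8.76 and 7.34 in siH19-2 and 8.73 and 7.33 in NC, and their groups overlapped. The 95% confidence interval of E2F1 ran from -0.10 to 0.18 and that of E2F2 from -0.11 to 0.14.

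None of the 11 genes of origin licensing passed the test (limma, 3 lower and 2 higher at an unadjusted p under 0.05, and 0 by the methods' t-test after adjustment), and the median of their differences was 0.045. Over all probe sets, at any signal level, 8.25% were lower and 12% were higher at an unadjusted p under 0.05. By the methods' t-test after adjustment 5.58% of all probe sets passed, 869 lower and 1320 higher. The counts of the other lists below have the same backgrounds. The 6 differences of the helicase subunits MCM2 to MCM7 lay between -0.011 (MCM7) and 0.12 (MCM3). MCM3 had 10.65, 10.62 and 10.66 in siH19-2, against 10.52, 10.55 and 10.49 in NC, without overlap but with an adjusted p of 0.13 from limma. MCM6 was likewise above NC in every array (difference 0.095, adjusted p = 0.23 from limma), while the groups of MCM2, MCM4, MCM5 and MCM7 overlapped.

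Of the loading factors, ORC1, ORC6 and CDC6 had negative differences that did not pass the test. ORC1, the large subunit of the origin recognition complex, had 8.60, 8.49 and 8.54 in siH19-2, against 8.69, 8.81 and 8.67 in NC. Its difference of -0.18 carried the largest spread of the loading factors that did not overlap (SE 0.054, adjusted p = 0.14 from limma). ORC6, another subunit of that complex, differed by -0.12 (adjusted p = 0.18) and CDC6, the loading ATPase, by -0.10 (adjusted p = 0.16, both from limma). In both genes all siH19-2 arrays were below all NC arrays. CDT1, which brings the helicase to the origin, and its inhibitor geminin (GMNN) had overlapping groups and differences of 0.047 and 0.045.

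Helicase activation was the role with the most genes that fell, 3 of 8, and its median difference was -0.12. Over all probe sets 2.63% fell, and within the NC signal range of the genes studied 5.59% fell. The role holds only 8 genes, and each of its 3 calls was lost in some or all fits without 1 array. MCM10, a scaffold that helps the loaded helicase to open DNA (gene ID 55388), had log2 signals of 9.44, 9.36 and 9.43 in siH19-2, against 9.74, 9.69 and 9.71 in NC. It averaged 9.41 ± 0.04 in siH19-2 and 9.71 ± 0.02 in NC (SD, n = 3 each), and the difference was -0.30 (SE 0.038, adjusted p = 0.013 from limma). The fit kept MCM10 without siH19-2 replicate 2 (0.048) or 3 (0.039), but not without NC replicate 1 (0.076), 2 (0.064) or 3 (0.066) or siH19-2 replicate 1 (0.053).

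DBF4 (gene ID 10926) is the regulatory subunit that turns on the kinase CDC7. It had 9.03, 8.96 and 9.01 in siH19-2, against 9.26, 9.27 and 9.30 in NC, a difference of -0.28 (SE 0.036, adjusted p = 0.014 from limma). It passed without siH19-2 replicate 3 (0.044), but not without NC replicate 1 (0.072), 2 (0.072) or 3 (0.069) or siH19-2 replicate 1 (0.052) or 2 (0.054). CDC7, the catalytic subunit, had 8.27, 8.20 and 8.31 in siH19-2, against 8.40, 8.42 and 8.40 in NC. The groups of CDC7 did not overlap either, but its difference of -0.15 had an adjusted p of 0.11 from limma.

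GINS1 is 1 of the 4 subunits of GINS, which joins CDC45 and the MCM ring in the active helicase. GINS1 (gene ID 9837) had 9.28, 9.32 and 9.33 in siH19-2, against 9.53, 9.53 and 9.58 in NC. The difference was -0.24 (SE 0.036, adjusted p = 0.023 from limma), with a range of 0.051 without siH19-2 replicate 3 to 0.094 without NC replicate 1, so that the call was lost without any 1 array. The other subunits did not pass, at -0.087 for GINS3, -0.071 for GINS4 and 0.099 for GINS2. GINS2 was above NC in every array, with 9.76, 9.72 and 9.62 in siH19-2, against 9.61, 9.59 and 9.60 in NC. CDC45 had tight groups, at 8.66, 8.67 and 8.67 in siH19-2, against 8.71, 8.72 and 8.70 in NC, and a difference of -0.041 (adjusted p = 0.53 from limma). By the methods' t-test after adjustment CDC45 passed as lower (0.049).

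**Figure D2:**
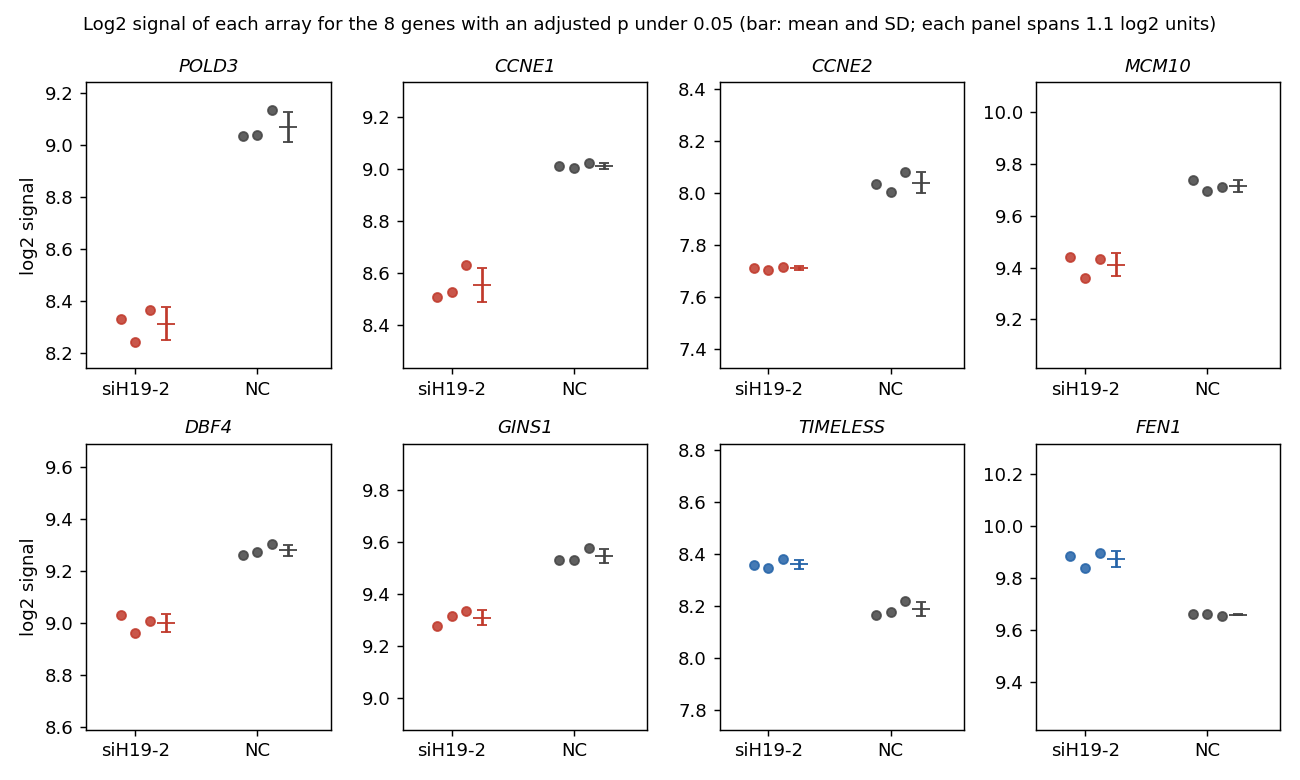
Log2 signal on the vertical axis of each of the 3 siH19-2 and 3 NC arrays, with the mean and SD beside the points, for the 6 genes that fell and the 2 that rose. The groups of no gene overlap, and the gap is widest for POLD3, at 8.24 to 8.37 in siH19-2 and 9.03 to 9.14 in NC.

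The largest difference of all 54 genes was in a polymerase subunit. POLD3 (gene ID 10714), an accessory subunit of DNA polymerase delta, which copies the lagging strand, had log2 signals of 8.33, 8.24 and 8.37 in siH19-2, against 9.03, 9.04 and 9.14 in NC. It averaged 8.31 ± 0.06 in siH19-2 and 9.07 ± 0.06 in NC (SD, n = 3 each). The difference was -0.76 (SE 0.051, 95% confidence interval -0.88 to -0.63, adjusted p = 0.0023 from limma), and 59.2% of the NC signal was left. POLD3 passed without any 1 of the 6 arrays (adjusted p from 0.012 to 0.021), ranked 115 by p among all probe sets, and was the only 1 of the 54 genes that passed with the replicate number as a block (adjusted p = 0.043 from limma).

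The other 8 genes for polymerases and primase did not pass. POLD1, the catalytic subunit of polymerase delta, averaged 8.39 in siH19-2 and 8.35 in NC, and POLD2, an accessory subunit, 10.82 in siH19-2 and 10.85 in NC. The differences within this enzyme thus spanned 0.80 on the log2 scale, from POLD3 to POLD1. POLA2, the accessory subunit of polymerase alpha, had 9.22, 9.18 and 9.14 in siH19-2, against 9.32, 9.33 and 9.31 in NC (difference -0.14, adjusted p = 0.11 from limma), without overlap. POLA1, the catalytic subunit, and the primase subunits PRIM1 and PRIM2, which start each new strand, differed by 0.049, -0.033 and 0.040 with overlapping groups. POLE and POLE2 of polymerase epsilon, which copies the leading strand, differed by -0.019 and 0.023.

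None of the 9 genes for the clamp, the clamp loader and the single-strand binding protein passed (limma, 0 lower and 3 higher at an unadjusted p under 0.05, and RFC2 and RPA1 higher by the methods' t-test after adjustment). PCNA, the sliding clamp, had 10.87, 10.82 and 10.85 in siH19-2, against 10.88, 10.89 and 10.90 in NC, a difference of -0.046 with a 95% confidence interval from -0.13 to 0.035. The 5 subunits of replication factor C, which loads the clamp, were spread from -0.073 (RFC4) to 0.19 (RFC1). RFC1, the large subunit, had 9.49, 9.48 and 9.59 in siH19-2, against 9.33, 9.32 and 9.33 in NC (adjusted p = 0.066 from limma). RFC2 had 10.20, 10.21 and 10.21 in siH19-2, against 10.08, 10.09 and 10.08 in NC, a difference of 0.12 (adjusted p = 0.089 from limma) with little spread in either group. RFC3, RFC4 and RFC5 had negative differences and overlapping groups.

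RPA1 is the large subunit of replication protein A, which coats single-stranded DNA. It had 10.72, 10.70 and 10.73 in siH19-2, against 10.56, 10.56 and 10.58 in NC, and its difference of 0.15 lay just outside the threshold (adjusted p = 0.057 from limma). RPA2 and RPA3, the smaller subunits, differed by 0.029 and 0.011, and their groups overlapped. RPA3 had 6.66, 6.58 and 6.50 in siH19-2, against 6.53, 6.54 and 6.63 in NC, with a 95% confidence interval of the difference from -0.12 to 0.15.

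Both genes that rose act at the replication fork. FEN1 (gene ID 2237), the nuclease that trims the flaps of Okazaki fragments, had log2 signals of 9.88, 9.84 and 9.90 in siH19-2, against 9.66, 9.66 and 9.65 in NC. The difference was 0.21 (SE 0.034, adjusted p = 0.026 from limma), or 16.0% more signal. Without 1 array its adjusted p was 0.060 (siH19-2 replicate 2) to 0.11 (NC replicate 1), so the call was lost in each case. LIG1, the ligase that seals the trimmed fragments, averaged 8.40 in siH19-2 and 8.41 in NC, with overlapping groups.

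TIMELESS, TIPIN and CLSPN form the fork protection complex, which couples the helicase to the polymerases and relays checkpoint signals. TIMELESS (gene ID 8914) had 8.36, 8.34 and 8.38 in siH19-2, against 8.17, 8.18 and 8.22 in NC, a difference of 0.17 (SE 0.034, adjusted p = 0.048 from limma) just inside the threshold. It was lost after cyclic loess (0.066) and without any 1 array (0.11 to 0.17). CLSPN, which encodes claspin, had 9.01, 8.93 and 9.06 in siH19-2, against 9.28, 9.19 and 9.28 in NC. Its difference of -0.25 was larger in size than that of GINS1, but its spread was larger too (SE 0.050, adjusted p = 0.052 from limma), and it was the gene nearest to the threshold on the outer side. After cyclic loess it passed (0.047). TIPIN, the partner of TIMELESS, had 7.91, 7.91 and 7.77 in siH19-2, against 8.03, 7.95 and 8.04 in NC (difference -0.15, adjusted p = 0.21 from limma).

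The other genes of this role did not pass with limma, and CHAF1A was higher by the methods' t-test after adjustment (0.035). CHAF1A and CHAF1B, subunits of the chromatin assembly factor that deposits histones on new DNA, differed by 0.14 and 0.15 with siH19-2 above NC in every array (adjusted p = 0.076 and 0.11 from limma). CHAF1A had 8.99, 9.02 and 9.002 in siH19-2, against 8.83, 8.88 and 8.87 in NC, and CHAF1B had 9.52, 9.55 and 9.46 in siH19-2, against 9.35, 9.40 and 9.34 in NC. UHRF1, which recognizes newly copied methylated DNA, averaged 8.20 in siH19-2 and 8.18 in NC.

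The 4 genes of nucleotide supply and uracil removal did not pass (limma, 0 lower and 2 higher at an unadjusted p under 0.05, and RRM1 higher by the methods' t-test after adjustment). RRM2 and TYMS, the small subunit of ribonucleotide reductase and thymidylate synthase, are classic S phase transcripts. RRM2 had 11.17, 11.22 and 11.22 in siH19-2, against 11.20, 11.18 and 11.25 in NC, and TYMS had 11.06, 11.05 and 11.01 in siH19-2, against 11.04, 11.04 and 11.05 in NC. The differences were -0.0032 and -0.0059, with 95% confidence intervals from -0.094 to 0.088 and from -0.089 to 0.077. RRM1, the large subunit of the reductase, had 10.79, 10.77 and 10.81 in siH19-2, against 10.67, 10.65 and 10.69 in NC (difference 0.12, adjusted p = 0.12 from limma). UNG, which removes uracil from DNA, had 9.07, 9.09 and 8.99 in siH19-2, against 8.88, 8.90 and 8.89 in NC (difference 0.16, adjusted p = 0.081 from limma), and neither gene had overlapping groups.

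**Figure D3:**
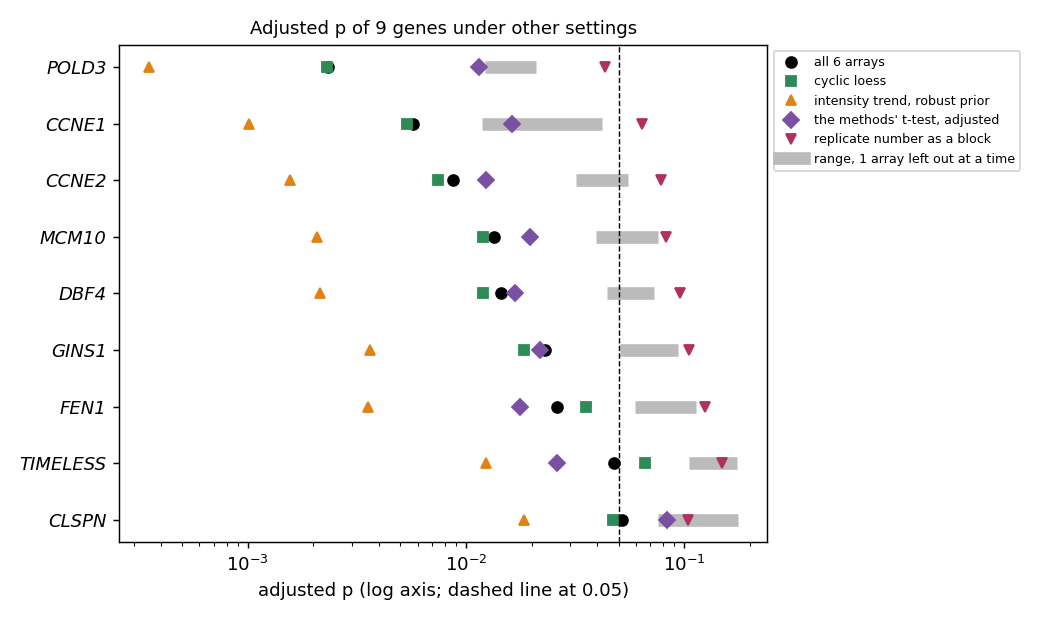
Adjusted p on a logarithmic horizontal axis for the 8 genes that passed and for CLSPN, by the fit to all 6 arrays, under 4 other settings, and as the range over fits without 1 array. The grey range stays left of the dashed line at 0.05 for POLD3 and CCNE1 only, and the block on the replicate number leaves POLD3 alone on that side.

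Of 73 further genes of the same pathway, 10 fell (13.7%) and 5 rose (6.85%), and 58 did not pass. Over all probe sets 2.63% fell and 2.64% rose. Within the NC signal range of the genes described above, 5.59% of probe sets fell and 5.94% rose, so the share of rises was close to this background. The list of 73 genes was likewise drawn up by known function, with earlier results of these data known. Among 27 other genes of origins and the replisome 5 fell, and ORC4, a subunit of the origin recognition complex, had 8.38, 8.31 and 8.46 in siH19-2, against 8.94, 8.89 and 8.91 in NC (difference -0.53, adjusted p = 0.0049 from limma). POLE3, a histone-fold subunit of polymerase epsilon (-0.38, adjusted p = 0.011), and MCM8, a relative of the helicase subunits with a part in repair (-0.30, adjusted p = 0.010), fell too. DSCC1 of an alternative clamp loader (-0.31, adjusted p = 0.037) and TICRR, a helicase-activation factor (-0.18, adjusted p = 0.036), completed the falls, all from limma. CHTF8, a partner of DSCC1 in that loader, rose by 0.18 (adjusted p = 0.034 from limma).

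Of 16 other genes of E2F, RB and G1/S control, 2 fell and 3 rose. E2F8, a repressor of E2F targets, had 9.07, 9.09 and 9.06 in siH19-2, against 9.66, 9.66 and 9.60 in NC, a difference of -0.57 (adjusted p = 0.0018 from limma). E2F5, another E2F factor that acts mainly as a repressor, had 6.11, 6.13 and 6.20 in siH19-2, against 6.95, 6.87 and 6.80 in NC (difference -0.73, adjusted p = 0.0026 from limma). The genes that rose were TFDP1, the dimerization partner of E2F factors (0.19, adjusted p = 0.032), RBL1 (0.21, adjusted p = 0.037) and RBL2 (0.18, adjusted p = 0.040), relatives of RB, all from limma. E2F3, an activator, had an adjusted p of 0.052 from limma at a difference of -0.27.

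Among 11 other genes of nucleotide supply, the salvage kinase DCK (-0.54, adjusted p = 0.0075) and RRM2B, the p53-inducible subunit of ribonucleotide reductase (-0.44, adjusted p = 0.013), fell, and SHMT1, an enzyme of one-carbon metabolism, rose (0.19, adjusted p = 0.044, all from limma). DCK had 7.32, 7.47 and 7.47 in siH19-2, against 7.91, 8.002 and 7.98 in NC, and RRM2B had 7.83, 7.72 and 7.85 in siH19-2, against 8.23, 8.18 and 8.30 in NC. Of 9 genes of replication-coupled chromatin, the maintenance methyltransferase DNMT1 fell (-0.16, adjusted p = 0.049 from limma), and of 10 replication checkpoint genes none passed (limma, 1 lower and 2 higher at an unadjusted p under 0.05, and 0 by the methods' t-test after adjustment). Without 1 array, 4 to 7 of the 73 genes passed.

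**Figure D4:**
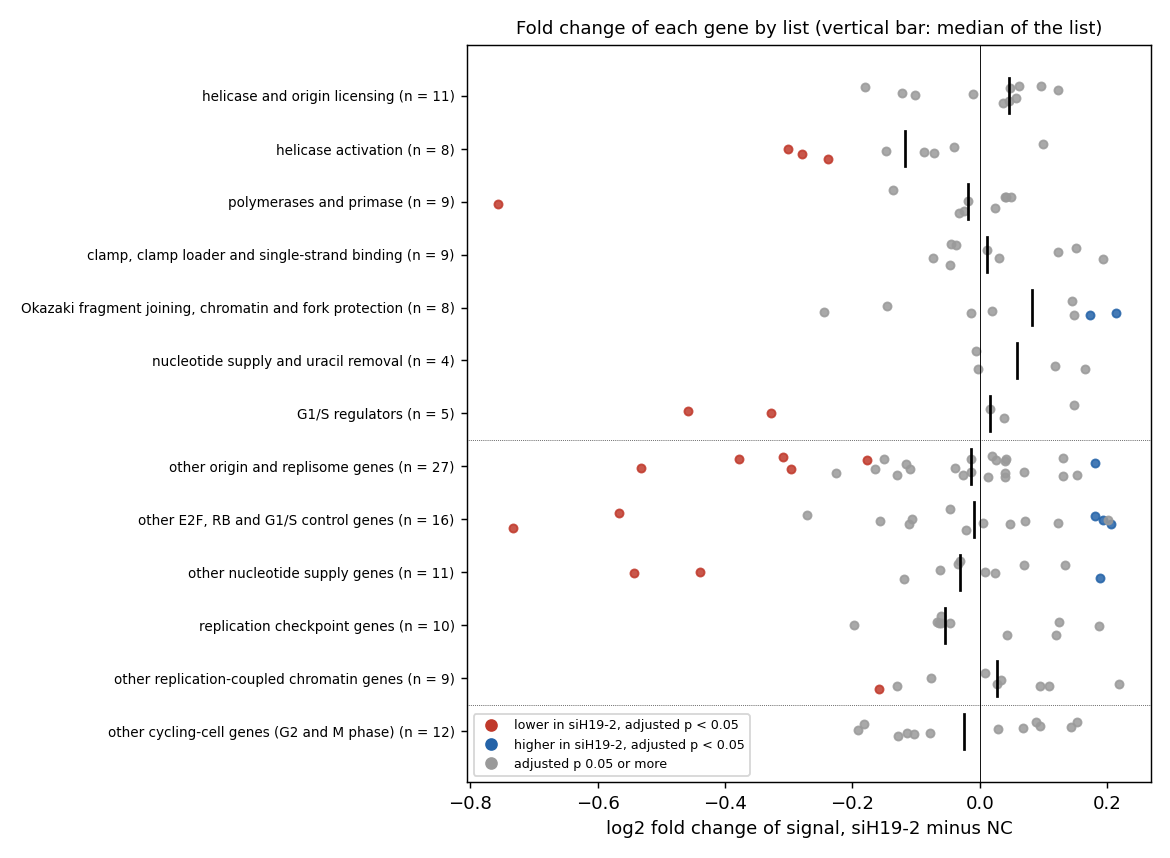
Log2 difference in signal, siH19-2 minus NC, on the horizontal axis for every gene of the 7 roles, of the 5 lists of further pathway genes and of a list of G2 and M phase genes, with 1 point per gene and a bar at the median of each list. The median of helicase activation, at -0.12, lies farthest from 0, and no gene of origin licensing, of the checkpoint or of G2 and M phase is coloured.

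The median differences of genes with and without the E2F motif lay close together. The 25 genes with the motif had a median difference of -0.0059 (range -0.25 to 0.16) and the 21 genes without it -0.0032 (range -0.46 to 0.21). The 8 genes with no window in the table, POLD3, CCNE2, CDK2, MCM4, MCM5, GINS4, RPA2 and RPA3, had a median of 0.020. Of the 6 genes that fell, 4 had a window and 1 of these, GINS1, held the motif, and of the 2 that rose neither held it. Of the 7 stretches printed above, that of GINS1 alone belongs to a gene that passed the test. A window without these letters says only that they are not in it.

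**Figure D5:**
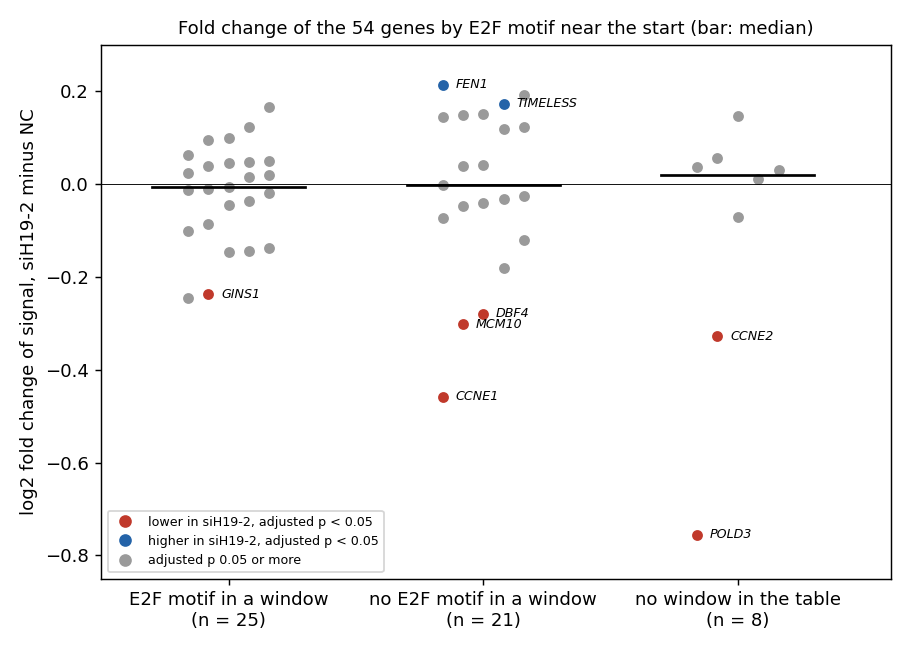
Log2 difference in signal, siH19-2 minus NC, on the vertical axis for the 54 genes, split by whether a window around the gene start held the E2F motif, with a bar at each median. All 3 medians lie within 0.02 of 0, and GINS1 is the only gene with the motif that passed the test.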

How the data were processed

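MIA-PaCa2 cells were profiled on Clariom D arrays, 3 for siH19-2 and 3 for NC, grouped by the labels. The deposited per-array values are log2 signals, which the authors normalized between arrays. The methods name limma for this and the statistics section names JMP. Background correction and annotation release were not given in the sources used here. A second deposited table gave gene names. It also holds the authors' group means on the log2 scale, a score, p-values, their −log10 and a fold change of their own comparison, which were not used. Of 39334 probe sets, 73 without a name were left out.

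Differences were fitted in R 4.3.3 with limma 3.58.1 (lmFit, eBayes). The degrees of freedom were 4 residual and 1.92 prior, the test was two-sided, and p-values were adjusted after Benjamini-Hochberg over 39261 probe sets with no filter. The fit was tested on simulated data with 200 changed probe sets, 50 for each change. Of those lowered by 0.8 and by 0.25, 92% and 14% were called. Of those raised by 0.8 and by 0.25, 84% and 6% were called. A difference of the smaller size can thus be missed. The simulation gave 102 calls, far fewer than the real data, so these shares do not carry over directly. With 3 arrays against 3, an exact permutation p cannot fall below 0.1, so precision is limited by the number of arrays. E2F motifs were counted in RefSeq windows with Python 3.11.15. The genes and lists were chosen with earlier results of these data known. Array values are given for genes with an adjusted p under 0.05, the 10 largest differences and the smallest p of each role, with others added after their values were seen. As alternatives, arrays were rescaled by cyclic loess or by their mean, dim probe sets were removed, and a trended robust prior, the methods' t-test, Holm adjustment, the study's thresholds, a replicate block and fits without 1 array were used. The t-test was adjusted after Benjamini-Hochberg here, whereas the study names Bonferroni-Holm for it.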

Additional observations from a re-analysis of the deposited data

How the results depend on the processing

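The counts depended on the processing, whereas the median log2 difference of the 54 genes stayed between -0.011 and 0.011 and crossed 0. Of the genes, 6 fell and 2 rose. With cyclic loess 7 fell and 1 rose (TIMELESS lost, adjusted p = 0.066). With only probe sets above the median signal 10 fell and 11 rose, with an intensity trend and robust prior 10 and 11, and with the methods' t-test 7 and 6 after Benjamini-Hochberg adjustment. With Bonferroni-Holm or the thresholds of the study 0 fell and 0 rose. Leaving out 1 array at a time left 2 to 5 that fell and 0 that rose (5 and 0 without siH19-2 replicate 3). Of the 73 further genes, 15 passed, 30 above the median signal, 28 with the trend, 0 with Holm and 4 to 7 without 1 array. Of all probe sets, 2067 passed, 1914 after cyclic loess, 4058 above the median signal (20.7% of 19630) and 3449 with the trend (8.78%). By the methods' t-test 2189 passed (5.58%), 869 lower and 1320 higher. With Holm 43 passed, with the thresholds of the study 30, and without 1 array 464 to 1078. The cause of these shifts was not tested. H19 kept its difference of -0.30 but lost the call with Holm (adjusted p = 1), and without 1 array it lay between -0.32 and -0.28 with an adjusted p of 0.036 to 0.067.

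The replicate numbers did not pair the arrays. Deviations from the group means correlated at 0.0060, 0.0099 and 0.0052 for arrays of the same number, and 0 of 6 arrays correlated best with their own number. With the number as a replicate block, 1 of the 54 genes fell (POLD3) and 0 rose, 0 of the further genes and 74 of all probe sets passed, and H19, at -0.30, had an adjusted p of 0.091.

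Signs turned only in 10 genes that did not pass and differed by under 0.05. Without 1 array the difference of CDT1 ran from -0.0075 to 0.10, POLD2 from -0.057 to 0.015, POLE from -0.031 to 0.0013, RPA3 from -0.029 to 0.050, LIG1 from -0.036 to 0.0087, UHRF1 from -0.0027 to 0.034, RRM2 from -0.016 to 0.015, TYMS from -0.019 to 0.011, E2F1 from -0.0028 to 0.092 and E2F2 from -0.016 to 0.063. RPA3 was -0.0021 after cyclic loess.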

Other observations

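Genes that act later in the cycle were read beside the replication genes. None of 12 genes of G2 and M phase passed the test (limma, 4 lower and 2 higher at an unadjusted p under 0.05, and UBE2C lower by the methods' t-test after adjustment). Over all probe sets 8.25% were lower and 12% were higher at that unadjusted p. UBE2C, which helps the anaphase-promoting complex to mark mitotic proteins, had 9.96, 9.99 and 9.91 in siH19-2, against 10.14, 10.11 and 10.16 in NC (difference -0.18, adjusted p = 0.052 from limma). The mitotic kinase PLK1 had 11.29, 11.27 and 11.19 in siH19-2, against 11.43, 11.47 and 11.42 in NC (difference -0.19, adjusted p = 0.067 from limma). CDC20 and AURKA of the same list differed by -0.13 and -0.12 (adjusted p = 0.17 for each from limma). On the other side of 0, CENPF, a kinetochore protein, had 10.11, 10.09 and 10.15 in siH19-2, against 9.92, 9.97 and 10.01 in NC (difference 0.15, adjusted p = 0.10 from limma). CCNB2, a mitotic cyclin, differed by 0.14 (adjusted p = 0.095 from limma) and MKI67, the proliferation marker Ki-67, by 0.068 (adjusted p = 0.42 from limma). The median of the 12 differences was -0.025. All siH19-2 arrays lay below all NC arrays in 6 of the 12 genes and above them in 5. Over all probe sets these shares were 9.98% and 18.3%.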
